A study of Rattus norvegicus with 47 samples.

Results

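The livers of 3 female Sprague-Dawley rats killed 60 min after an intravenous dose of all-trans-retinoic acid (RA) were set against those of 3 rats killed 30 min after the same dose. These 6 arrays are all arrays of both times among 47 in the series, and they were chosen by their titles alone. The comparison asked which transcripts differed between these early times after RA reached the blood.

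The rats were bought at 6 weeks of age, ate a stock diet and so were not vitamin A-deficient. At 8 weeks each was primed with vehicle only (vegetable oil with 5% ethanol), its food was removed, and 16 h later it was lightly anaesthetised with isoflurane. About 25 µg of RA bound to albumin (10 µg per 100 g of body weight) went into the surgically exposed left common iliac vein, the rats woke, and they were killed with carbon dioxide after 60 min (3 rats) or 30 min (3 rats). The same experiment held 3 rats killed 90 min after RA and 2 rats given vehicle and killed at 0 min, which the titles call untreated. All 11 rats were thus fasted, primed with vehicle, anaesthetised and operated on. No vehicle rat was killed at 30 or 60 min, so the time since RA and the time since anaesthesia and surgery cannot be told apart. RNA of 1 rat was hybridised to each array, and nothing says how the rats were spread over days.

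RA acts through nuclear receptors (RARA, RARB and RARG, paired with RXR) that bind direct repeats in DNA and switch on genes, among them the CYP26 hydroxylases that destroy RA and the receptor gene Rarb itself. Immediate early genes such as Fos and Egr1 encode transcription factors that are transcribed within minutes of a stimulus, need no new protein, and are shut off quickly. In fasted liver, genes such as Igfbp1, Pdk4 and Irs2 are held up by the transcription factor FOXO1 and by glucocorticoids, and insulin represses them.

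Values are log2 signals centred on the median of each array, so 0 is the median probe set and 1 unit is a factor of 2. Each array had 1 floor value, 17.1 to 28.3 times below its median, at which 667 to 1566 probe sets lay. None of the 13 genes called below was at the floor on any of the 6 arrays. The 3'-minus-5' difference of the GAPDH control probe sets, a sign of RNA integrity, was 0.27 to 0.47 at 60 min and 0.41 to 0.48 at 30 min, and that of actin was 1.87 to 2.12 at 60 min and 1.84 to 1.98 at 30 min. Hepatocyte markers stood high, as in liver: albumin (Alb) averaged 8.61 ± 0.15 at 60 min and 8.48 ± 0.15 at 30 min (SD, n = 3 each), and 0 of 11 hepatocyte markers tested were called, with 0 at an unadjusted p under 0.05 in limma. All 11 nonetheless had a positive difference, 2 of them lay wholly above (18.2%, against 7.37% of all genes), and their median was 0.158, against 0.018 over all genes. The summed level of the hepatocyte markers was 11.25 to 11.45 at 60 min and 11.16 to 11.32 at 30 min (log2). In whole liver, fewer cells of a type and less RNA per cell cannot be told apart.

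Few transcripts were called, and more of the called ones were lower than higher at 60 min. Lower at 60 min were the early-response genes Fos, Egr1, Gadd45g and Nfil3, the fasting genes Igfbp1, Pdk4 and Irs2, and Slc25a25 and Pnrc1. Higher were the chemokine gene Cxcl1, the RA hydroxylase gene Cyp26b1, the NF-kappaB co-regulator gene Nfkbiz and the transcription factor gene Hes6. These 13 genes were called out of 11825 tested (0.11%), 4 higher (0.0338%) and 9 lower (0.0761%), at an adjusted p under 0.05 from limma. Over probe sets, 14 of 22781 were called (0.0615%), 4 higher (0.0176%) and 10 lower (0.0439%), since both probe sets of Pdk4 were, and 1732 (7.6%) had an unadjusted p under 0.05, 839 higher and 893 lower. The median difference of all probe sets was 0.00967.

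In all 13 called genes every 60 min array lay on 1 side of every 30 min array. Over all genes tested, 872 (7.37%) had the 60 min arrays all above and 633 (5.35%) all below. The smallest called difference was 1.07 on the log2 scale, and the median standard error (SE) of a probe set was 0.295. The called genes of smallest change had smaller errors than that, and larger differences with wider errors, such as that of Cyp26a1 (2.38 ± 0.50), were not called.

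**Figure D1:**
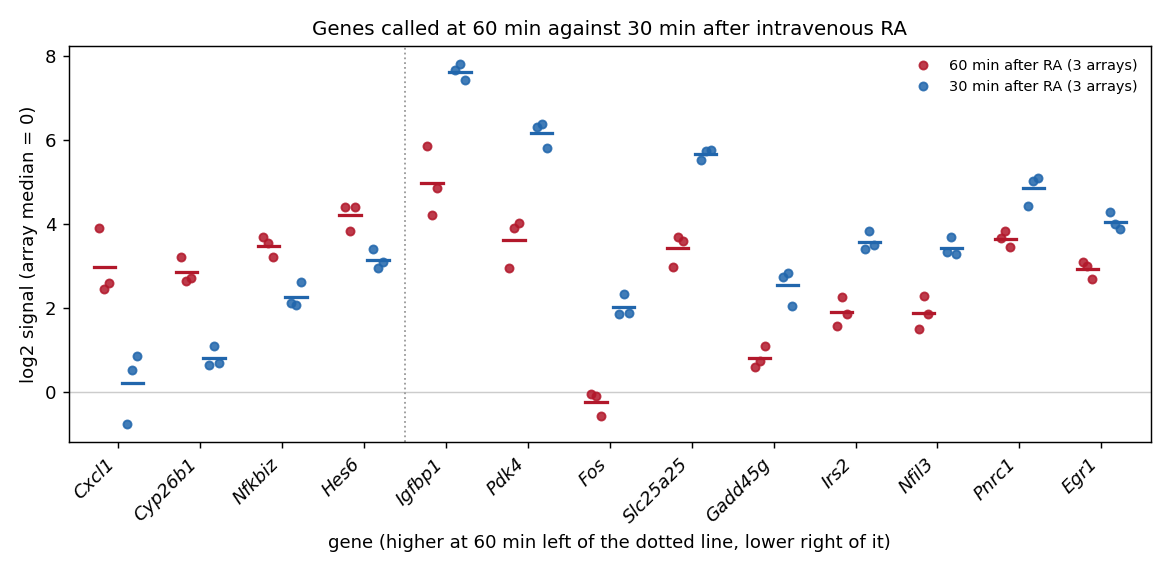
Log2 signal (array median = 0) of the 13 called genes on each array, with 60 min (red, 3 arrays) left of 30 min (blue, 3 arrays) for each gene; short lines are group means. The 4 genes left of the dotted line are higher at 60 min and the other 9 are lower, and the arrays of both times do not overlap for any of them; Cxcl1 runs from 2.46 to 3.91 at 60 min and from -0.77 to 0.87 at 30 min.

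The calls rested on the variance model and on few arrays. When eBayes was run without an intensity trend, 1 probe set was called, that of Fos. Cyp26b1, Egr1, Irs2, Slc25a25 and the representing Pdk4 probe set stayed called when each of the 6 arrays was left out. Without 30 min replicate 2, 7 probe sets were called, and Cxcl1, Fos, Gadd45g, Hes6, Igfbp1, Nfil3, Nfkbiz, Pnrc1 and the second Pdk4 probe set were lost. Without 60 min replicate 1, 10 were called but 1 of them higher, and Cxcl1, Gadd45g, Hes6, Nfkbiz, Pnrc1 and the second Pdk4 probe set were lost. Without 30 min replicate 1, 16 were called, 7 of them higher, and Gadd45g and Nfkbiz were lost. Hes6 and Pnrc1 were lost without 30 min replicate 3, Nfkbiz without 60 min replicate 2, and Hes6, Igfbp1 and Pnrc1 without 60 min replicate 3. The second Pdk4 probe set was lost in these 4 fits as well.

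Among retinoid genes, Cyp26b1, which hydroxylates RA, rose. It stood at 3.23, 2.65 and 2.72 at 60 min, against 0.64, 1.10 and 0.69 at 30 min. The lowest 60 min array thus lay above the highest 30 min array by more than 1 unit. The difference was 2.06 ± 0.21 (SE), or 4.17-fold (adjusted p = 0.0011). A second Cyp26b1 probe set differed by -0.06 ± 0.85 and gave no call, and the mean over both (1.00) was not called.

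Cyp26a1, the main RA hydroxylase gene of liver, stood at 3.81, 4.57 and 5.01 at 60 min, against 2.32, 2.47 and 1.47 at 30 min. The arrays of both times did not overlap, but the standard error was larger than that of Cyp26b1 and the gene was not called (2.38 ± 0.50, or 5.21-fold, adjusted p = 0.14). Leaving out vehicle replicate 1 or 2, or fitting the 6 arrays alone, brought it past the threshold. Its means over the experiment were -0.97 in vehicle rats (arrays at 0.30 and -2.24), 2.08 at 30 min, 4.47 at 60 min and 4.64 at 90 min. At 60 min it was called above vehicle (5.43 ± 0.56, adjusted p = 0.000823), by 4.17 without vehicle replicate 2 and 6.70 without vehicle replicate 1, each still called. At 30 min it was 3.05 ± 0.56 above vehicle (adjusted p = 0.0696), 1.79 without vehicle replicate 2 (adjusted p = 0.317) and 4.32 without vehicle replicate 1 (adjusted p = 0.00769), so the vehicle array left out decided the call. The comparisons with vehicle, and that of 90 with 60 min, share arrays with the comparison of 60 with 30 min and are given side by side only, and 0.6% of genes were called at 60 min against vehicle, 0.152% at 30 min against vehicle and 0.135% at 90 against 60 min.

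The promoter of Cyp26a1 (RefSeq, GRCr8, chr1:244883572-244883871, plus strand, 250 bases before to 50 after the start) is printed because it holds the direct repeat with 5 bases between half-sites (DR5) to which RA receptors bind, in capitals, here on the minus strand.
Cyp26a1: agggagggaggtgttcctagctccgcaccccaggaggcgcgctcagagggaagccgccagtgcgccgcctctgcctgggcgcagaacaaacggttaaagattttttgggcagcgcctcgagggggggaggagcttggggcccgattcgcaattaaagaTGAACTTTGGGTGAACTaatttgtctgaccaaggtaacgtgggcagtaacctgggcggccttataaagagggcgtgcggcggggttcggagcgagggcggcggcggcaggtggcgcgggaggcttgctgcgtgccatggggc
The match spans bases -92 to -76 from the start. With both strands searched, 8 of 9832 promoters of tested genes held a DR5 match (0.0814%), and 128 of 33469 in the whole table (0.382%). The Rarb window (chr15:11336142-11336441, plus strand) was the other one among the named genes, with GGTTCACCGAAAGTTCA at bases 25 to 41 after the start. None of the 4 called rises held one, Cyp26b1 included, which says only that this window lacks these letters.

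Rarb, the RA receptor gene, stood at 3.78, 3.79 and 3.74 at 60 min, against 3.35, 3.23 and 2.92 at 30 min (0.60 ± 0.16, adjusted p = 0.265, not called). The vehicle arrays stood at 3.42 and 3.32, so the 30 min mean (3.17) lay below the vehicle mean (3.37). At 60 min Rarb was not called above vehicle (0.40 ± 0.18, adjusted p = 0.47). From 60 min on it was called: at 90 min it averaged 4.82 ± 0.34 against 3.77 ± 0.03 at 60 min (SD, n = 3 each; 1.04 ± 0.16, adjusted p = 0.0224). Lrat, which esterifies retinol for storage, had 2.61, 2.30 and 2.45 at 60 min, against 2.07, 2.10 and 1.68 at 30 min (0.50 ± 0.16, adjusted p = 0.415). Cyp2c22, a liver P450, had 6.67, 6.74 and 6.81 at 60 min, against 6.23, 5.67 and 5.95 at 30 min (0.79 ± 0.14, adjusted p = 0.0762). In these 3 genes the groups did not overlap, though none passed the threshold. Cyp2c22 passed it under 3 of 21 alternatives, among them robust hyperparameters (adjusted p = 0.0398) and the fit without 30 min replicate 1 (adjusted p = 0.0294), and over all of them its adjusted p ran from 0.0294 to 0.453. Dhrs3, a retinaldehyde reductase gene, overlapped between the times (0.09 ± 0.14, adjusted p = 0.942, 95% interval -0.20 to 0.38).

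Of 20 RA receptor targets tested (25 listed), 1 was called higher and 0 lower (against 0.0338% and 0.0761% of all genes). Of these 20, 4 lay wholly above (20%, against 7.37% of all genes) and 1 wholly below (5%, against 5.35%). The median difference was 0.179, against 0.018 over all genes. The 4 were Cyp26a1, Cyp26b1, Rarb and Lrat, and the 1 below was the transcription factor gene Ets2 (-0.35). Of 24 genes of retinoid transport and metabolism (31 listed), 0 were called in limma, with 4 higher and 0 lower at an unadjusted p under 0.05. There, Lrat, Cyp2c22, Cyp2c7 and Rdh10 lay wholly above (4 genes or 16.7%, against 7.37% of all genes). Wholly below lay 0 (against 5.35%), and the median was 0.0728. The retinol carrier gene Rbp4 differed by -0.03 and the retinaldehyde dehydrogenase gene Aldh1a1 by -0.14.

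The early-response genes Fos, Egr1, Gadd45g and Nfil3 fell. At 30 min Fos and Egr1 had been called above vehicle, while Gadd45g and Nfil3 had not. Fos, a subunit of the AP-1 transcription factor, stood at -0.05, -0.09 and -0.58 at 60 min, against 1.86, 2.33 and 1.89 at 30 min. It fell by 2.27 ± 0.30, or 4.82-fold (adjusted p = 0.00733). At 30 min it had been 6.29-fold above vehicle (2.65 ± 0.34, adjusted p = 0.0055), while at 60 min it was 0.38 ± 0.34 above it (adjusted p = 0.755). At 90 min it stood at -1.17, -1.02 and -1.32, below the vehicle arrays at -0.65 and -0.60. A second, noisier Fos probe set differed by -0.34 ± 1.29, and the mean over both (-1.30) was not called.

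Egr1, a zinc-finger transcription factor gene, had 3.09, 3.00 and 2.70 at 60 min, against 4.30, 4.00 and 3.88 at 30 min. It fell by 1.13 ± 0.14, or 2.18-fold (adjusted p = 0.00501). Vehicle arrays stood at 2.61 and 2.62, so it had been 1.44 ± 0.16 above vehicle at 30 min (adjusted p = 0.00244). It averaged more at 90 min (3.64 ± 0.07) than at 60 min (2.93 ± 0.21), without being called (0.70 ± 0.14, adjusted p = 0.0743).

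The Egr1 promoter (GRCr8, chr18:26736828-26737127, plus strand) is printed for its pair of serum response elements (CArG boxes, in capitals), the sites through which serum response factor switches on early genes.
Egr1: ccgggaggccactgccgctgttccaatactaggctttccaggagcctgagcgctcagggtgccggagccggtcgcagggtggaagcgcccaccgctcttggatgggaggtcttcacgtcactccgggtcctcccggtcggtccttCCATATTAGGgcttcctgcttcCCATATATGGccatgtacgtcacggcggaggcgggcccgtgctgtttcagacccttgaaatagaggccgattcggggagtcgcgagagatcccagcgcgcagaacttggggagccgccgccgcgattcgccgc
They span bases -105 to -96 and -83 to -74. Of the 9 called falls, 6 had a promoter in the table, and Egr1 was the only one of the 6 with a CArG box, against 1.35% of promoters of tested genes and 1.64% of all. Fos, Irs2 and Pnrc1 had none in the table.

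Gadd45g, a growth arrest and stress gene, had 0.59, 0.73 and 1.09 at 60 min, against 2.74, 2.84 and 2.06 at 30 min (it fell by 1.74 ± 0.24, adjusted p = 0.00983). Nfil3, a repressor of clock-controlled genes, had 1.5, 2.30 and 1.85 at 60 min, against 3.35, 3.70 and 3.28 at 30 min (it fell by 1.56 ± 0.21, adjusted p = 0.00733). At 30 min against vehicle, neither Gadd45g (0.88 ± 0.27, adjusted p = 0.338) nor Nfil3 (0.39 ± 0.23, adjusted p = 0.672) was called. Gadd45g averaged 0.80 at 60 min against 1.67 in vehicle rats (adjusted p = 0.262), and Nfil3 averaged 1.88 at 60 min against 3.05 in vehicle rats, a called fall of 1.17 ± 0.23 (adjusted p = 0.0437) that was lost without vehicle replicate 1 (adjusted p = 0.09) or 2 (adjusted p = 0.359). Jun, the partner of Fos, had 1.84, 2.59 and 1.30 at 60 min, against 3.77, 3.54 and 3.39 at 30 min, and missed the threshold (-1.66 ± 0.38, adjusted p = 0.184). Its 3 probe sets all lay lower at 60 min.

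Of 47 immediate early genes tested (50 listed), 0 were called higher and 4 lower, 1 lay wholly above (2.13%) and 12 wholly below (25.5%), and the median was -0.142. Over all genes 0.0761% were called lower, 7.37% lay wholly above and 5.35% wholly below. The 8 below that were not called were Myc (-1.79 ± 0.36), Jun, the stress gene Gadd45b (-1.18 ± 0.25), the MAP kinase phosphatase gene Dusp1 (-1.16 ± 0.31), Trib1 (-0.87 ± 0.26), the nuclear receptor gene Nr4a1 (-0.61), Klf6 (-0.30) and the mRNA-destabilising Zfp36 (-0.28). Myc had 0.66, 1.12 and 0.51 at 60 min, against 2.71, 2.85 and 2.12 at 30 min (adjusted p = 0.122). Gadd45b had 2.40, 2.39 and 2.39 at 60 min, against 3.37, 3.63 and 3.73 at 30 min (adjusted p = 0.14). The gene above was Jund (0.43 ± 0.14), which is made in most cells without a stimulus. Junb differed by 0.01 ± 0.33, Atf3 by -0.14 ± 0.66 and Klf2 by 0.28 ± 0.26. Without 30 min replicate 2 the median was -0.28, and without 30 min replicate 1 it was -0.102.

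**Figure D2:**
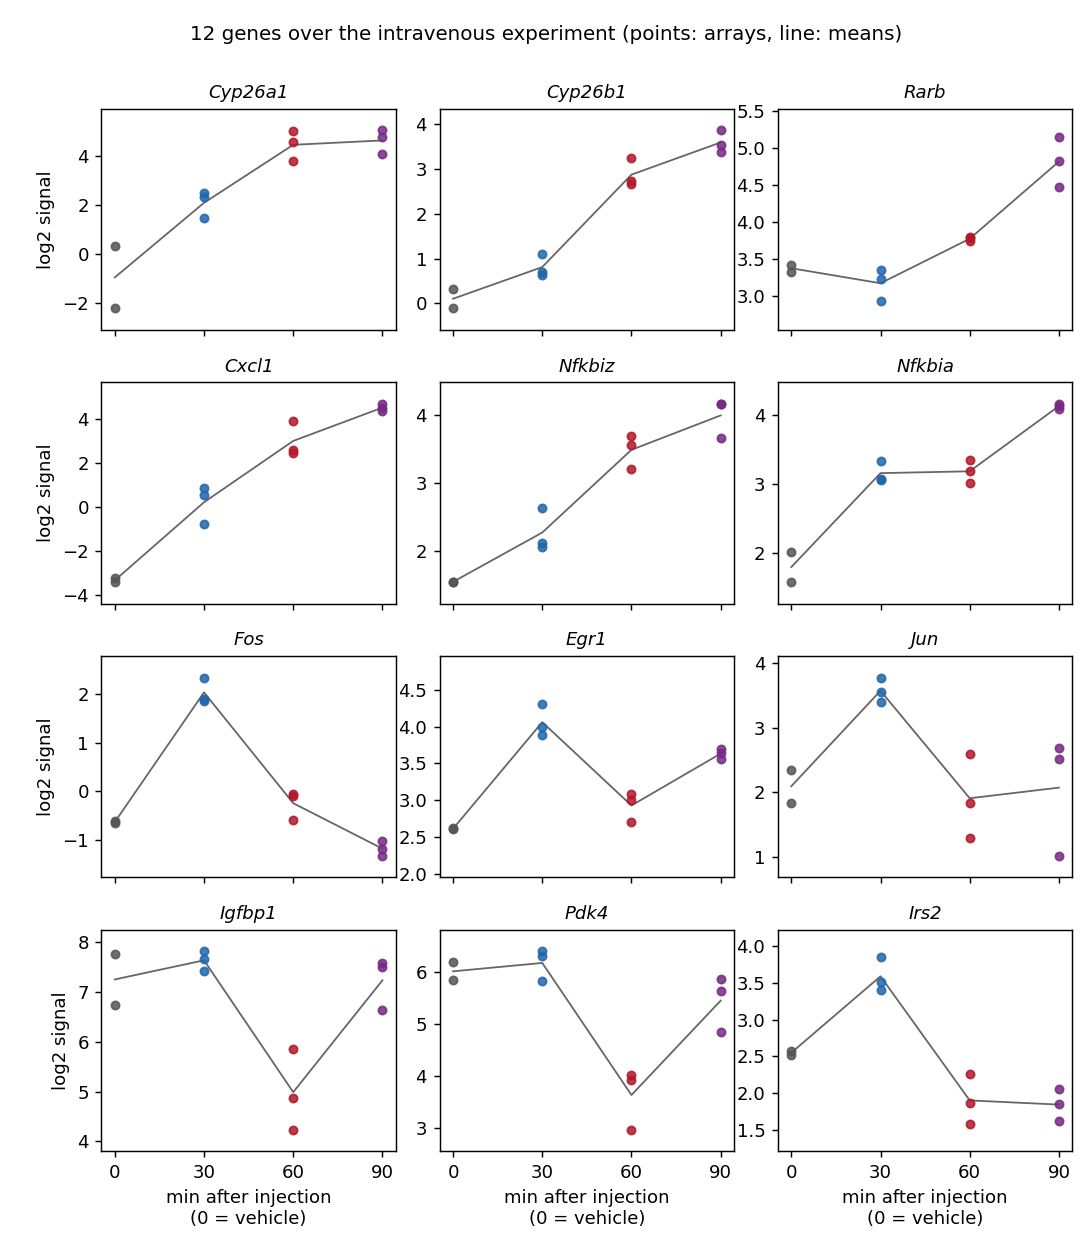
Log2 signal of 12 genes on each array (points) against minutes after injection, with vehicle rats at 0 and lines through the group means; each panel has its own vertical scale. Fos, Egr1, Jun and Irs2 have their highest mean at 30 min, Igfbp1 and Pdk4 dip at 60 min (4.99 and 3.63 on average), and Cyp26a1, Cyp26b1, Cxcl1 and Nfkbiz have means that go up at each time from vehicle to 90 min. At 30 min Jun (adjusted p = 0.317 in limma) and Irs2 (adjusted p = 0.128) were not called above vehicle.

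The chemokine gene Cxcl1 and the NF-kappaB co-regulator gene Nfkbiz rose. Cxcl1, whose product draws neutrophils, had 3.91, 2.46 and 2.59 at 60 min, against -0.77, 0.53 and 0.87 at 30 min. It rose by 2.78 ± 0.40, or 6.84-fold (adjusted p = 0.0128). It was also called above vehicle at 30 min (3.53 ± 0.44, adjusted p = 0.0055) and at 60 min (6.31 ± 0.44, adjusted p = 1.8e-05). The vehicle arrays stood at -3.24 and -3.41, near their floors of -4.82 and -4.41, so the size of the difference from vehicle is uncertain and no fold is given. At 90 min the arrays stood at 4.34, 4.48 and 4.67 (1.51 ± 0.40 above 60 min, adjusted p = 0.204).

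Nfkbiz had 3.69, 3.56 and 3.21 at 60 min, against 2.13, 2.07 and 2.63 at 30 min, and rose by 1.21 ± 0.19, or 2.31-fold (adjusted p = 0.0204). Its second probe set went the other way without a call (-1.21 ± 0.75), and the mean over both was 0.00. Nfkbia, the inhibitor that NF-kappaB induces as feedback, overlapped between the times, with 3.35, 3.20 and 3.02 at 60 min, against 3.07, 3.08 and 3.34 at 30 min (0.03 ± 0.14, adjusted p = 0.985, 95% interval -0.28 to 0.34). It had been called above vehicle at 30 min (1.36 ± 0.16, adjusted p = 0.00355) and was called again at 90 against 60 min (0.94 ± 0.14, adjusted p = 0.0224), with vehicle arrays at 1.58 and 2.02 and 90 min arrays at 4.14, 4.17 and 4.10.

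The promoters of Cxcl1 (GRCr8, chr14:17479272-17479571, minus strand) and Nfkbiz (chr11:58251471-58251770, plus strand) are printed because both hold a kappaB site, the binding site of NF-kappaB, in capitals.
Cxcl1: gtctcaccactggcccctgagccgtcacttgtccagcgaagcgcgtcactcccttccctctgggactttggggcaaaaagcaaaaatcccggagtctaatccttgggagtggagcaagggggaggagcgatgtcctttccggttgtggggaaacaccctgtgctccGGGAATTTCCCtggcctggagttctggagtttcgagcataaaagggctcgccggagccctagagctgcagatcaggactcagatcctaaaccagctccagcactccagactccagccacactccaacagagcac
Nfkbiz: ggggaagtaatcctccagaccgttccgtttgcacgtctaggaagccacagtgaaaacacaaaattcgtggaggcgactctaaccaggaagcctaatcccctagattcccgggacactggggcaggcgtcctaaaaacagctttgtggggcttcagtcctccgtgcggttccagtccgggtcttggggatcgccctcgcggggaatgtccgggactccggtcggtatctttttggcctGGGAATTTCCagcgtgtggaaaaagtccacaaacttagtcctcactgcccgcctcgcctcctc
In Cxcl1 the match lies at bases -84 to -74, read from both strands as a pair of overlapping matches, and in Nfkbiz at -13 to -4. Of the 4 called rises, 2 held a kappaB site and 0 of the 6 called falls with a window did, against 4.81% of promoters of tested genes and 4.18% of all. The Nfkbia promoter held one as well, at -31 to -22, without a difference in signal between the times that passed the test.

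Of 22 NF-kappaB response and feedback genes tested (26 listed), 1 was called higher and 0 lower (against 0.0338% and 0.0761% of all genes), and the median was 0.318. Of these 22, 7 lay wholly above (31.8%, against 7.37% of all genes) and 2 wholly below (9.09%, against 5.35%). Above were Nfkbiz, the cytokine gene Il1b (1.15 ± 0.35, adjusted p = 0.384), Bcl3 (0.68), Tnfaip2 (0.71), Cd83 (0.56), and the adhesion molecule genes Vcam1 (0.43) and Icam1 (0.24). Il1b had 4.66, 3.73 and 3.50 at 60 min, against 2.26, 3.08 and 3.11 at 30 min. Below were Traf1 (-1.86 ± 0.97, at low signal) and Tnip1 (-0.31). Tnfaip3, the A20 deubiquitinase gene, overlapped between the times (0.60 ± 0.21, adjusted p = 0.482) and was called at 90 against 60 min (1.60, adjusted p = 0.0189).

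Of 17 chemokine and chemokine receptor genes tested (21 listed), Cxcl1 alone was called (against 0.11% of all genes), and it alone lay wholly above (5.88%, against 7.37% of all genes). A positive difference was found in 15, and the median was 0.26. Ccl2, a monocyte attractant gene, had 2.00, 1.27 and 1.79 at 60 min, against -0.07, -0.50 and 1.44 at 30 min (1.40 ± 0.42, adjusted p = 0.362). Cxcl10 differed by 1.21 ± 0.39 (adjusted p = 0.413). Cxcl2, a close relative of Cxcl1, differed by 0.03 ± 0.46, with 3.04, 1.95 and 0.90 at 60 min, against 1.87, 1.72 and 2.20 at 30 min.

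The calprotectin genes S100a8 (1.72 ± 0.43, adjusted p = 0.221) and S100a9 (1.39 ± 0.33, adjusted p = 0.196) had every 60 min array above every 30 min array, and Mmp8 differed by 1.12 ± 0.79. The summed level of these 3 neutrophil markers was 1.83 to 1.93 at 60 min and 0.38 to 1.06 at 30 min, with 0.33 to 1.02 in vehicle rats and 2.10 to 3.16 at 90 min (log2), and the other 7 of 10 neutrophil markers listed were not tested. Their part in the rise of Cxcl1 and Nfkbiz was not tested. Summed erythroid markers (4 of 10 tested) stood at 7.63 to 8.06 at 60 min and 7.30 to 7.56 at 30 min. Lymphocyte markers went the other way, and 0 were called. The median was -0.406 for T cell and NK cell markers (8 of 11 negative). For B cell and plasma cell markers it was -0.297 (4 of 5 negative), against 0.018 over all genes.

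Of 26 acute phase and IL-6 signalling genes tested (30 listed), 0 were called in limma, with 1 higher and 1 lower at an unadjusted p under 0.05. Of these 26, 6 lay wholly above (23.1%, against 7.37% of all genes) and 3 wholly below (11.5%, against 5.35%), with a median of 0.164. Haptoglobin (Hp) differed by 0.16 and ceruloplasmin (Cp) by 0.23, while the kinase gene Pim1 differed by 2.08 ± 0.73 at low signal. The signal transducer of IL-6, Il6st, was not called, with 4.94, 4.86 and 4.37 at 60 min, against 5.73, 5.55 and 5.81 at 30 min (-0.98 ± 0.17, adjusted p = 0.0548). It was called under 6 of 21 alternatives, among them quantile normalization (adjusted p = 0.0178), over which its adjusted p ran from 0.0178 to 0.406. Its other 3 probe sets lay lower by less, at -0.17 to -0.60.

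Igfbp1 and Pdk4, genes of the fasted state, had the deepest of the called falls. Igfbp1, which encodes a secreted IGF-binding protein that insulin represses, had 5.86, 4.23 and 4.87 at 60 min, against 7.67, 7.82 and 7.43 at 30 min. It fell by 2.65 ± 0.35, or 6.30-fold (adjusted p = 0.00733). The vehicle arrays, at 6.74 and 7.77, and the 90 min arrays, at 6.63, 7.58 and 7.50, all lay above all 60 min arrays. The 60 min livers were called lower than vehicle (-2.27 ± 0.40, adjusted p = 0.0234), a call lost without vehicle replicate 2 (-1.75, adjusted p = 0.247), and the 90 min livers were called higher than those of 60 min (2.25 ± 0.35, adjusted p = 0.0232).

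Pdk4, the pyruvate dehydrogenase kinase gene that spares glucose in fasting, also dipped at 60 min. It had 2.96, 3.91 and 4.02 at 60 min, against 6.31, 6.40 and 5.82 at 30 min, and fell by 2.54 ± 0.28, or 5.83-fold (adjusted p = 0.00166). Its second probe set fell by 2.10 ± 0.31 (adjusted p = 0.0181). At 90 min it was called higher than at 60 min (1.82 ± 0.28, adjusted p = 0.0224), with 4.85, 5.64 and 5.86. Vehicle rats had 6.19 and 5.84. The dip of Igfbp1 and Pdk4 thus rests on the 3 livers of 60 min, which stand apart from those of every other time in both genes. It was not particular to them. The called falls Gadd45g, Slc25a25 and Pnrc1 also had every 60 min array below every array of the other times. Fos, Egr1, Irs2 and Nfil3 did not.

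Irs2, the insulin receptor substrate gene, had 1.58, 2.26 and 1.87 at 60 min, against 3.40, 3.85 and 3.51 at 30 min (it fell by 1.68 ± 0.19, or 3.21-fold, adjusted p = 0.00166). At 90 min it averaged 1.85 ± 0.21, against 1.90 ± 0.34 at 60 min, a difference of -0.06 ± 0.19 (adjusted p = 0.955). The vehicle arrays, at 2.58 and 2.52, lay between both times. Pnrc1, a nuclear receptor coactivator gene, had 3.68, 3.83 and 3.45 at 60 min, against 4.44, 5.02 and 5.10 at 30 min (it fell by 1.20 ± 0.18, adjusted p = 0.0204). Vehicle rats had 4.81 and 5.20, and the 90 min arrays stood at 4.31, 4.64 and 4.78. At 60 min Pnrc1 was called lower than vehicle (-1.35 ± 0.20, adjusted p = 0.00933). At 90 against 60 min it was not called (0.92 ± 0.18, adjusted p = 0.0727).

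Slc25a25, the mitochondrial ATP-Mg/phosphate carrier gene, had 2.97, 3.70 and 3.61 at 60 min, against 5.52, 5.75 and 5.78 at 30 min. It fell by 2.25 ± 0.23, or 4.76-fold (adjusted p = 0.0011). Its means were 4.55, 5.68, 3.43 and 4.49 from vehicle to 90 min, so 30 min had its highest and 60 min its lowest mean. Against vehicle (arrays at 4.15 and 4.94), neither 30 min (1.13 ± 0.26, adjusted p = 0.218) nor 60 min (-1.12 ± 0.26, adjusted p = 0.0939) was called. Its promoter (GRCr8, chr3:36116532-36116831, minus strand) is printed for a full cyclic AMP response element, TGACGTCA, in capitals, through which glucagon acts on fasting genes.
Slc25a25: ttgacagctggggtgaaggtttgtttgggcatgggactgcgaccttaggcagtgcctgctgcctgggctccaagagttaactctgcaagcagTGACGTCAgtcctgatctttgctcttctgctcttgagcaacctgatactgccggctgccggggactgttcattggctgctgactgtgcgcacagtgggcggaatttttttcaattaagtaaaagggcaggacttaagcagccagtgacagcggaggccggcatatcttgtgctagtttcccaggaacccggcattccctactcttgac
The element spans bases -158 to -151. It was the only 1 of the 6 called falls in the table with this element, against 3.05% of promoters of tested genes and 1.83% of all, both strands searched. Rcan1, which was not called, held it too, at -207 to -200.

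Other fasting genes were not called. Pck1, the rate-setting gene of gluconeogenesis, had 7.82, 7.71 and 7.80 at 60 min, against 7.89, 7.80 and 7.63 at 30 min, with a 95% interval of the difference of -0.26 to 0.25 (adjusted p = 1). Of 21 gluconeogenesis and glucagon response genes tested (23 listed), 0 were called higher and 2 lower (Igfbp1 and Irs2), and the median was -0.0987. Over all genes 0.0338% were called higher and 0.0761% lower. Of these 21, 3 lay wholly above (14.3%, against 7.37% of all genes) and 5 wholly below (23.8%, against 5.35%). Above were Ppp1r3b (1.32 ± 0.27, adjusted p = 0.136), which directs phosphatase to glycogen, the coactivator gene Ppargc1a (0.78) and the glucose 6-phosphate carrier gene Slc37a4 (0.41). Below beside the called pair were Slc38a2 (-0.83), Slc38a4 (-0.35) and Foxo1 (-0.33). Ppp1r3b had 4.05, 4.16 and 3.94 at 60 min, against 2.72, 2.66 and 2.82 at 30 min. It passed the threshold under 2 of 21 alternatives, the fit of the 6 arrays alone and that without 90 min replicate 1. Over all of them its adjusted p ran from 0.00306 to 0.496. At 60 min it was called above vehicle (2.64 ± 0.30, adjusted p = 0.00156). Its second probe set differed by 0.58 ± 0.61 between 60 and 30 min.

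Of 18 genes of the insulin, IGF and growth hormone axis (19 listed) Igfbp1 and Irs2 were called lower and the median was -0.227, with Igf1 at 0.01 and Insr at -0.16. Over all genes 0.0761% were called lower. Of these 18, 1 lay wholly above (5.56%, against 7.37% of all genes) and 2 wholly below (11.1%, against 5.35%). Of 23 glucocorticoid-induced genes (24 listed) Igfbp1 and Pdk4 were called lower, and the median was -0.106. Of these 23, 1 lay wholly above (4.35%, against 7.37% of all genes) and 3 wholly below (13%, against 5.35%). Tsc22d3 and Fkbp5, glucocorticoid targets, differed by -0.28 and -0.14, and Per1 by 0.32 ± 0.21 (adjusted p = 0.792). Of 26 fatty acid oxidation and PPARA target genes (30 listed) Pdk4 was called lower, 22 had a negative difference, and the median was -0.128. Of these 26 genes 2 lay wholly below (7.69%, near the 5.35% of all genes) and 0 above. Acot1 (-1.87 ± 0.45) and Ehhadh (-1.03 ± 0.34) followed Pdk4 in size, with overlapping arrays, while Cpt1a, which admits fatty acids to mitochondria, differed by -0.07 ± 0.13. Without 30 min replicate 1, 10 of the 26 lay wholly below and the median was -0.19, and without 30 min replicate 3 it was -0.0703. Igfbp1, Irs2 and Pdk4 each belong to more than 1 of the lists above, so their calls recur and are not separate results.

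**Figure D3:**
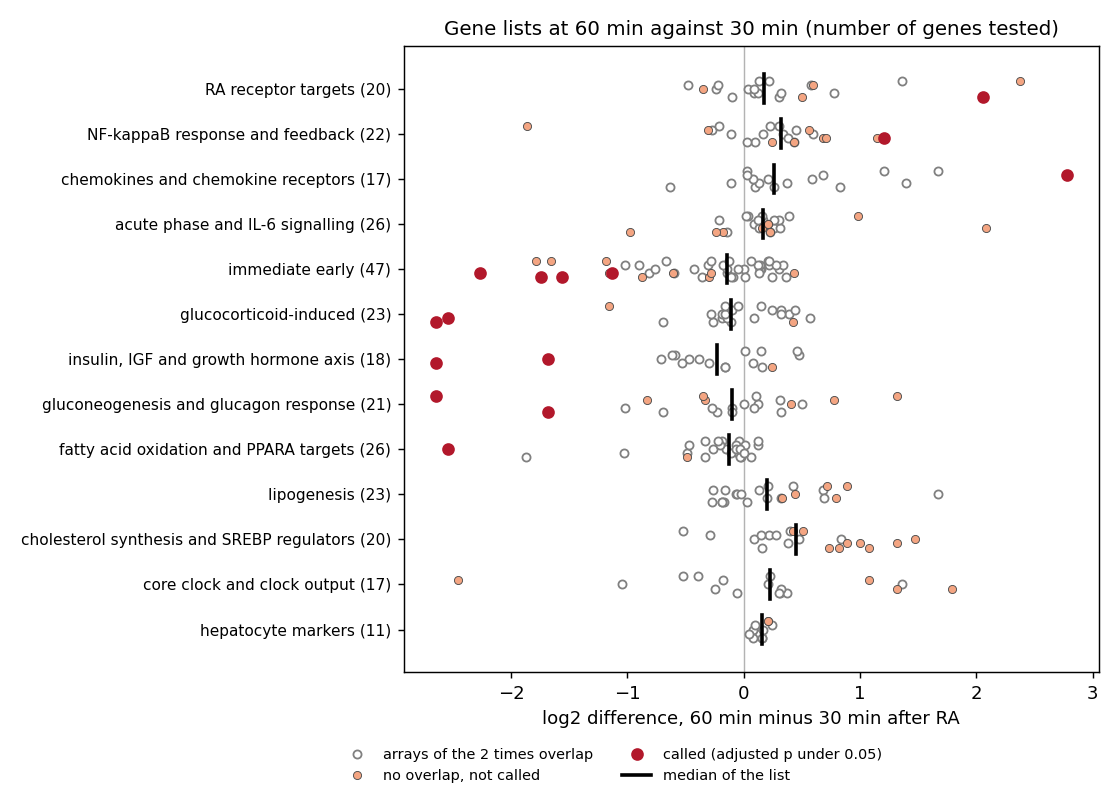
Log2 difference (60 min minus 30 min) of the tested members of 13 gene lists, 1 point a gene; open points are genes whose arrays overlap between the times, orange points do not overlap but were not called, large red points were called, and black bars are list medians. The called genes lie at the ends of their lists, while 18 of 20 genes of the cholesterol list lie right of 0 (median 0.452, none called), as do all 11 hepatocyte markers (median 0.158, none called).

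No gene of cholesterol synthesis was called, though most had a positive difference. Of 20 tested (25 listed), 18 had a positive difference, 9 lay wholly above (45%, against 7.37% of all genes) and 0 below, and the median was 0.452. In limma 9 were higher and 1 lower at an unadjusted p under 0.05, and 0 were called. Wholly above were the enzyme genes Idi1 (1.47 ± 0.33, adjusted p = 0.18), Msmo1 (1.32 ± 0.35), Acat2 (1.08 ± 0.42), Cyp51 (1.00 ± 0.27), Hsd17b7 (0.89 ± 0.16, adjusted p = 0.0762), Fdps (0.82 ± 0.22), Lss (0.73 ± 0.25), Fdft1 (0.51) and Nsdhl (0.42). The range of the list median over fits without 1 of the 6 arrays was 0.311 (without 60 min replicate 1) to 0.566 (without 30 min replicate 1), and 9 to 11 genes lay wholly above.

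Idi1, isopentenyl diphosphate isomerase, had 3.88, 2.59 and 2.53 at 60 min, against 2.04, 1.06 and 1.49 at 30 min. Cyp51, lanosterol demethylase, had 5.48, 4.53 and 4.33 at 60 min, against 4.32, 3.61 and 3.40 at 30 min. Hsd17b7, which acts late in the pathway, had 2.86, 2.79 and 2.55 at 60 min, against 1.85, 1.58 and 2.10 at 30 min. In Idi1, Msmo1 and Cyp51 replicate 1 of 60 min was the highest array. A second Hsd17b7 probe set differed by -0.07 ± 0.41.

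Insig2 and Insig1, which hold the transcription factor SREBP in the endoplasmic reticulum, were the 2 members with negative differences (-0.52 and -0.29 ± 0.15). Insig1 had 5.09, 5.19 and 4.67 at 60 min, against 5.27, 5.12 and 5.43 at 30 min, and had been called above vehicle at 30 min (1.47, adjusted p = 0.00355). The list medians were -0.181 for 30 min against vehicle, 0.306 for 60 min against vehicle and -0.425 for 90 against 60 min, in comparisons that share arrays. The median over the 20 genes, each relative to its mean over 11 arrays, was 0.54, 0.25 and 0.12 at 60 min, against 0.02, -0.15 and -0.36 at 30 min. It was -0.23, -0.19 and -0.09 at 90 min and 0 and 0.15 in vehicle rats, so the third 60 min array lay within the range of the vehicle arrays.

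**Figure D4:**
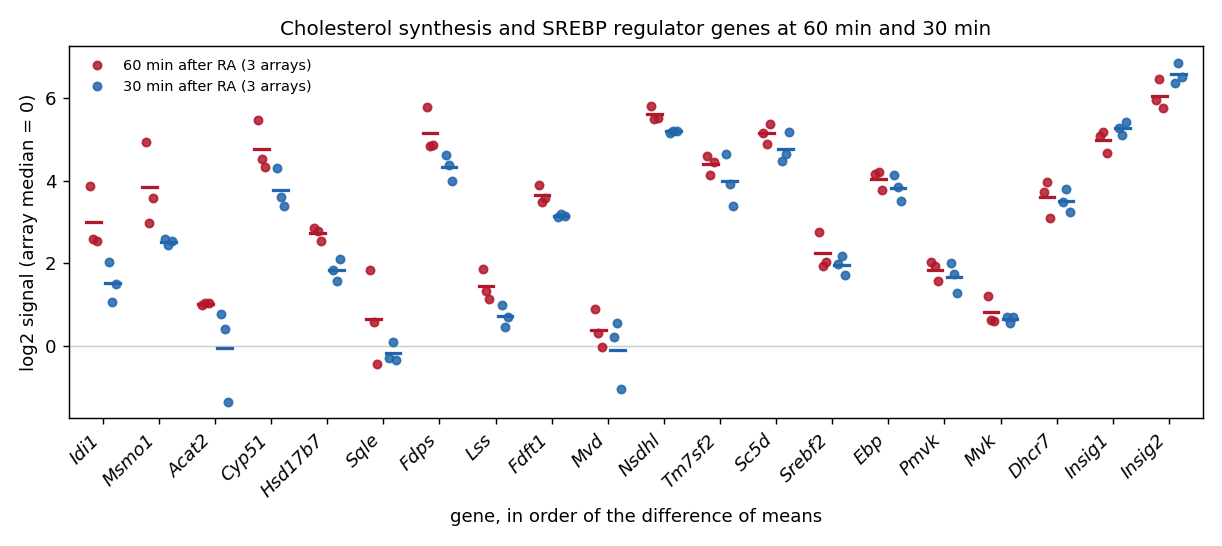
Log2 signal (array median = 0) of the 20 tested genes of cholesterol synthesis and SREBP regulation on each array, with 60 min (red) left of 30 min (blue) and short lines for the means, in order of the difference. In 9 genes all red points lie above all blue points, Insig1 and Insig2 at the right end are lower at 60 min, and the highest red point of Idi1 (3.88) belongs to replicate 1.

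Of 23 lipogenesis genes tested (26 listed), 0 were called in limma, with 6 higher and 0 lower at an unadjusted p under 0.05. The median was 0.198, and 5 lay wholly above (21.7%, against 7.37% of all genes) and 0 below (against 5.35%). The 5 were the lipogenic transcription factor gene Srebf1 (0.79 ± 0.27), the desaturase gene Fads1 (0.72 ± 0.20), Pnpla3 (0.89), Acss2 (0.44) and Dgat2 (0.33). Srebf1 had 3.43, 2.65 and 2.50 at 60 min, against 1.94, 2.19 and 2.09 at 30 min. Without 60 min replicate 1 the median was 0.089, and Fasn, the fatty acid synthase gene, had 2.34 on that array, against 0.76 and 0.85 on the other 60 min arrays and 0.91, 0.12 and 0.84 at 30 min.

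Among clock genes, Dbp and Npas2 had large differences that were not called. Of 17 core clock and clock output genes tested (19 listed), 0 were called in limma, with 4 higher and 1 lower at an unadjusted p under 0.05. Of these 17, 3 lay wholly above (17.6%, against 7.37% of all genes) and 1 below (5.88%, against 5.35%). Dbp, a clock output transcription factor gene, had 3.83, 3.72 and 4.36 at 60 min, against 3.26, 1.34 and 1.95 at 30 min (1.79 ± 0.47, adjusted p = 0.27). Usp2 (1.32 ± 0.31) and Per3 (1.08 ± 0.48) lay wholly above as well. Npas2, a partner of BMAL1, had -0.72, -1.48 and -3.42 at 60 min, against 0.26, 1.02 and 0.48 at 30 min (-2.46 ± 0.54, adjusted p = 0.173). Clock time of death is not given in the sources used here.

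The remaining called rise, Hes6, encodes a basic helix-loop-helix transcription factor that works against HES1 in mouse. It had 4.42, 3.84 and 4.41 at 60 min, against 3.42, 2.96 and 3.09 at 30 min (1.07 ± 0.16, or 2.10-fold, adjusted p = 0.0204), and it fell short of a call after quantile normalization. Its means were 3.11, 3.16, 4.22 and 3.41 from vehicle to 90 min. Of 27 Kruppel-like and other liver transcription factors tested (31 listed), Hes6 was the 1 called (against 0.11% of all genes). The median of that list was 0.05, and Hes1, with 2.72, 2.96 and 2.79 at 60 min, against 3.35, 3.13 and 3.44 at 30 min, was not called (-0.48 ± 0.14, adjusted p = 0.32).

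Next after the called rises by unadjusted p came Hsd17b7, Cyp2c22 and Rcan1, at an adjusted p of 0.0762 each. Rcan1, a calcineurin inhibitor gene, had 4.46, 5.00 and 5.16 at 60 min, against 4.02, 3.07 and 3.45 at 30 min (1.36 ± 0.25). Nabp1 (1.40 ± 0.28), Slc17a4 (0.88 ± 0.18), Sall1 (0.60 ± 0.12), Ppp1r3b and Wnt4 followed, with an adjusted p of 0.125 to 0.14. Wnt4, a secreted signalling protein gene, had the largest difference named (3.52 ± 0.73), with -0.72, 0.27 and -0.41 at 60 min, against -3.97, -4.02 and -3.44 at 30 min, close to the floor. After the called falls came Il6st, then Rgs16, a regulator of G-protein signalling, with 3.34, 2.33 and 3.30 at 60 min, against 4.91, 5.06 and 4.19 at 30 min (-1.73 ± 0.31, adjusted p = 0.0762), and the tyrosine kinase gene Tec (-1.07 ± 0.19, adjusted p = 0.0762).

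The 13 called genes were looked up in other rats, the vitamin A-deficient ones of the same series killed 3 h after about 100 µg of RA (3 arrays) or given vehicle (3 arrays). In limma 0 of the 13 were called there, against 0.119% of 11753 genes, a share at which 0 of 13 says little. Of the 13, 4 had an unadjusted p under 0.05, against 3.12% of all genes. These were Cyp26b1 (3.36 ± 0.79, adjusted p = 0.145), Slc25a25 (1.72 ± 0.37, adjusted p = 0.0579), Hes6 (0.89 ± 0.29, adjusted p = 1) and Igfbp1 (-1.24 ± 0.42, adjusted p = 1). The difference of Slc25a25 was positive there, opposite in sign to its fall between 30 and 60 min. Some named genes outside the 13 were called higher at 3 h. They were Cyp26a1 (6.30 ± 0.94, adjusted p = 0.0022), Cyp2c22 (3.76 ± 0.60, adjusted p = 0.00263), Rarb (1.78 ± 0.29, adjusted p = 0.00323), Dhrs3 (1.59 ± 0.25, adjusted p = 0.0024) and Ppp1r3b (1.85 ± 0.31, adjusted p = 0.0042). Lrat was not called (3.55 ± 0.82, adjusted p = 0.122). Dose, diet and time differ between both experiments.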

How the data were processed

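Liver RNA of 1 rat was hybridised to each single-colour Affymetrix array. The authors deposited log2 signals for 31099 probe sets, made with GCOS per the submitters' processing notes (version not given). Base 2 was read from the hybridisation controls, and the median of every array is 0. Database identifiers run on within each group, so any order of processing and the group cannot be told apart.

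All 11 intravenous arrays were fitted together with limma 3.58.1 in R 4.3.3 (lmFit on group means, eBayes with an intensity trend, prior and residual degrees of freedom 7.28 and 7). The 57 control probe sets were left out. A probe set was tested if at least 2 arrays held it over their 40th percentile (22781 probe sets). A call is a p under 0.05 after Benjamini-Hochberg adjustment over all of these. The 3 h values come from a like fit of the 16 RA time course arrays. The platform annotation gave 20826 probe sets 1 gene, 436 several and 9831 none, and 20758 gene identifiers were found in RefSeq. Of several probe sets tested for a gene, the one with the highest mean stood for it (11825 genes, 3338 with more than 1).

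Named were all called genes, filled up to 12 a direction by unadjusted p, called list members and 12 fixed genes. Further list members are examples chosen after their values were seen. Members and lists were chosen with earlier results of these data known, and lists carry no test. Promoters are RefSeq windows on GRCr8, found for 26 of 32 named genes. Motifs beyond those given above were searched too. An AP-1 site lay in 1 of 4 called rises (Cyp26b1) and 0 of 6 called falls, against 3.54% of promoters of tested genes. An E-box lay in 0 and 1 (9.24%), a TATA box in 1 and 1 (7.59%), and the cyclic AMP half-site TGACG in 1 and 3 (30.8%). Direct repeats with 2 bases between half-sites and the glucocorticoid response element lay in none. P-values measure the spread between rats. The scripts were tested on simulated data.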

Additional observations from a re-analysis of the deposited data

How the results depend on the processing

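The direction of every named gene but Nfkbia and Pck1 held under all alternatives run, with Nfkbiz at 0.00 as a mean over its probe sets. In fits without 1 array Nfkbia differed by -0.05 to 0.12 (-0.05, -0.02 and -0.01 where its sign turned) and Pck1 by -0.07 to 0.06 (0.01, 0.03 and 0.06 where its sign turned). The number of calls moved more: of 14 probe sets, 4 higher and 10 lower, 1 was left without an intensity trend (0 higher, 1 lower), 21 were called from the 6 arrays alone (16 lower, without Cxcl1 and Hes6), and 26 at an adjusted p under 0.10 (7 higher, 19 lower). Robust hyperparameters gave 13 and lost Cxcl1, Igfbp1 and Pdk4, and quantile normalization gave 15 and lost Hes6. No filter on low values, array weights and a fold change of at least 1.5 each gave 14, and a stricter filter 18. Leaving out 1 of the 60 or 30 min arrays gave 7 to 18 calls, 1 to 7 higher and 4 to 15 lower. Leaving out 1 of the 90 min or vehicle arrays, an alternative chosen after seeing the data, gave 15 to 20 calls, up to 15 lower, with all 14 kept. Without 90 min replicate 1, the array with the highest 3'-minus-5' differences, 18 were called, Jun, Rcan1 and Ppp1r3b among them. The mean over a gene's probe sets ended the calls of Cyp26b1 (1.00), Nfkbiz (0.00) and Fos (-1.30). In the comparisons with vehicle, leaving out 1 vehicle array, also chosen after seeing the data, changed the calls of Cyp26a1, Nfil3 and Igfbp1 as given above. The cause was not tested for any of these. Deviations of same-numbered rats at 60 and 30 min had r = 0.0232, 0.0242 and 0.0148 across probe sets, which are not independent. Rats of unlike number had r of -0.0464 to 0.0227. No clear pairing by number was seen, though 3 rats a time cannot exclude it. A fit with the replicate block called 26 probe sets, 20 of them lower, all 14 and Cyp2c22 (adjusted p = 0.045) included. With 3 arrays a group, signal near the floor limits genes such as Wnt4, Npas2 and Traf1.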

Other observations

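Other gene groups held differences between 60 and 30 min that were not called. Of 8 genes of polyamine synthesis 5 had a negative difference, and the median was -0.013. In the list, 2 lay wholly above (25%, against 7.37% of all genes): Amd1 (0.54 ± 0.15, adjusted p = 0.3), which makes the aminopropyl donor, and Azin1 (0.53 ± 0.22), which shields ornithine decarboxylase. Of 27 interferon response genes 4 lay wholly above (14.8%) and 0 wholly below (5.35% of all genes), among them Stat2 (0.48 ± 0.17) and Oasl (0.52 ± 0.21). Of 17 genes of BMP, TGF-beta and hepcidin signalling, 2 lay wholly above (11.8%, against 7.37% of all genes) and 4 wholly below (23.5%, against 5.35%). Tgif1, a repressor of TGF-beta signalling, had 0.78, 1.90 and 1.79 at 60 min, against 2.68, 2.77 and 2.48 at 30 min (-1.15 ± 0.25, adjusted p = 0.171). The glutathione-degrading stress gene Chac1 had 1.85, 2.95 and 1.64 at 60 min, against 3.56, 3.52 and 3.52 at 30 min (-1.39 ± 0.33, adjusted p = 0.196). The bile canalicular pump gene Abcc2 had 6.10, 6.24 and 5.92 at 60 min, against 5.82, 5.50 and 4.88 at 30 min (0.69 ± 0.19, adjusted p = 0.319). Of 20 cell cycle genes and 20 cytosolic ribosomal protein genes, 0 had separate groups, and limma called 0, with 0 at an unadjusted p under 0.05.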
